A study of Rattus norvegicus with 74 samples.

Results

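The genes described here shape and clear mitochondria: Mfn1, Mfn2 and Opa1 fuse them, Dnm1l, Fis1 and Mff divide them, and Pink1, Bnip3 and Fundc1 mark them for removal. They were taken by symbol from 3 tables of gene counts, and all 9 were found among 30560 genes. Male Wistar Kyoto rats, 9 weeks old at sampling, had either trained on a treadmill (ExT) from the age of 5 weeks for 4 weeks, 5 days a week and up to 60 min a session at 20 m/min, or stood on a treadmill that stayed still (Sed). Each of 30 rats, which all drank water with deuterium oxide, gave 2 kinds of library from the red inner gastrocnemius, a hindlimb muscle, taken 24 h after the last session. One kind was whole muscle (SM) and the other was mitochondria pulled out of fresh muscle with an antibody and then exposed to RNase-A and proteinase-K (MT). The left ventricle wall of the heart (LV) was sampled in 14 of the rats. SM_Sed, SM_ExT, MT_Sed and MT_ExT held 15 libraries each, and LV_Sed and LV_ExT held 7 each. Every library is 1 rat, and the Sed and ExT arms are different rats. The series asks which nuclear-encoded RNAs accompany muscle mitochondria and whether training changes them.

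Mitochondria form a network that is remodelled throughout the life of a muscle fibre or heart muscle cell. Fusion joins outer membranes through the mitofusins Mfn1 and Mfn2 and inner membranes through Opa1, which also shapes the cristae, whereas division is carried out by the cytosolic GTPase Drp1, the product of Dnm1l, recruited by the outer membrane adaptors Mff and Fis1. Mitophagy, the delivery of mitochondria to lysosomes, is started on damaged organelles by the kinase Pink1 together with the ubiquitin ligase parkin, or by the receptors Bnip3 and Fundc1, which bind the autophagosome protein LC3 directly and are known for responses to low oxygen. All 9 genes lie in the nucleus and their proteins are made in the cytosol.

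Library totals were 19477976 to 39401323 counts in SM, 530397 to 9988027 in MT and 54645657 to 75758777 in LV, and the mitochondrial genome took 22.1 to 35.9%, 12.9 to 95.4% and 39.9 to 50.7% of them. Levels in SM and LV are given in TMM CPM, counts scaled to a common library size with TMM factors set over both tissues together. Levels in MT, and in SM beside MT, are given in nuclear CPM, counts scaled to a common total over the 30523 nuclear-encoded genes. Neither scale corrects for gene length, so levels were compared within a gene and not between genes. The tissue labels were checked against marker lists. All 7 cardiac markers together reached 44588 to 53869 nuclear CPM in LV_Sed and 4.65 to 25.8 in SM_Sed, and the 7 fast-fibre markers 80613 to 146858 in SM_Sed and 2.33 to 6.47 in LV_Sed. In MT_Sed the cardiac list stood at 579.8 to 804 and the fast-fibre list at 559 to 1948 nuclear CPM, so the cardiac list was higher in this muscle fraction than in whole muscle.

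In the heart, 5 of the 9 genes were higher than in skeletal muscle of the same rats and 3 were lower with TMM scaling, in sedentary and in trained rats alike. The higher ones, under every scaling tried, were Opa1, Fundc1, Mfn1, Mff and Dnm1l. Bnip3, Mfn2 and Fis1 were lower with TMM, of which Mfn2 and Fis1 had positive estimates when libraries were scaled by their totals of nuclear-encoded counts, and Pink1 was not called with TMM. With edgeR, 8 of 9 members had an adjusted p under 0.05 in Sed, where 78.7% of 14367 genes tested did, and 8 of 9 in ExT, where 79.3% did. By direction, 40.0% of genes were higher and 38.6% lower in LV in Sed, and 39.7% and 39.5% in ExT, beside 5 and 3 of 9 members. Being called in this comparison thus sets the members little apart from genes in general, and what follows gives the size and direction of each difference. Over all genes, 5750 were called higher and 5551 lower in Sed with TMM, and 8997 and 3057 with nuclear totals. LV and SM libraries were made with different kits from different amounts of RNA, which cannot be told apart from the tissue. In such bulk samples, fewer cells of a type and less RNA per cell cannot be told apart either.

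**Figure D1:**
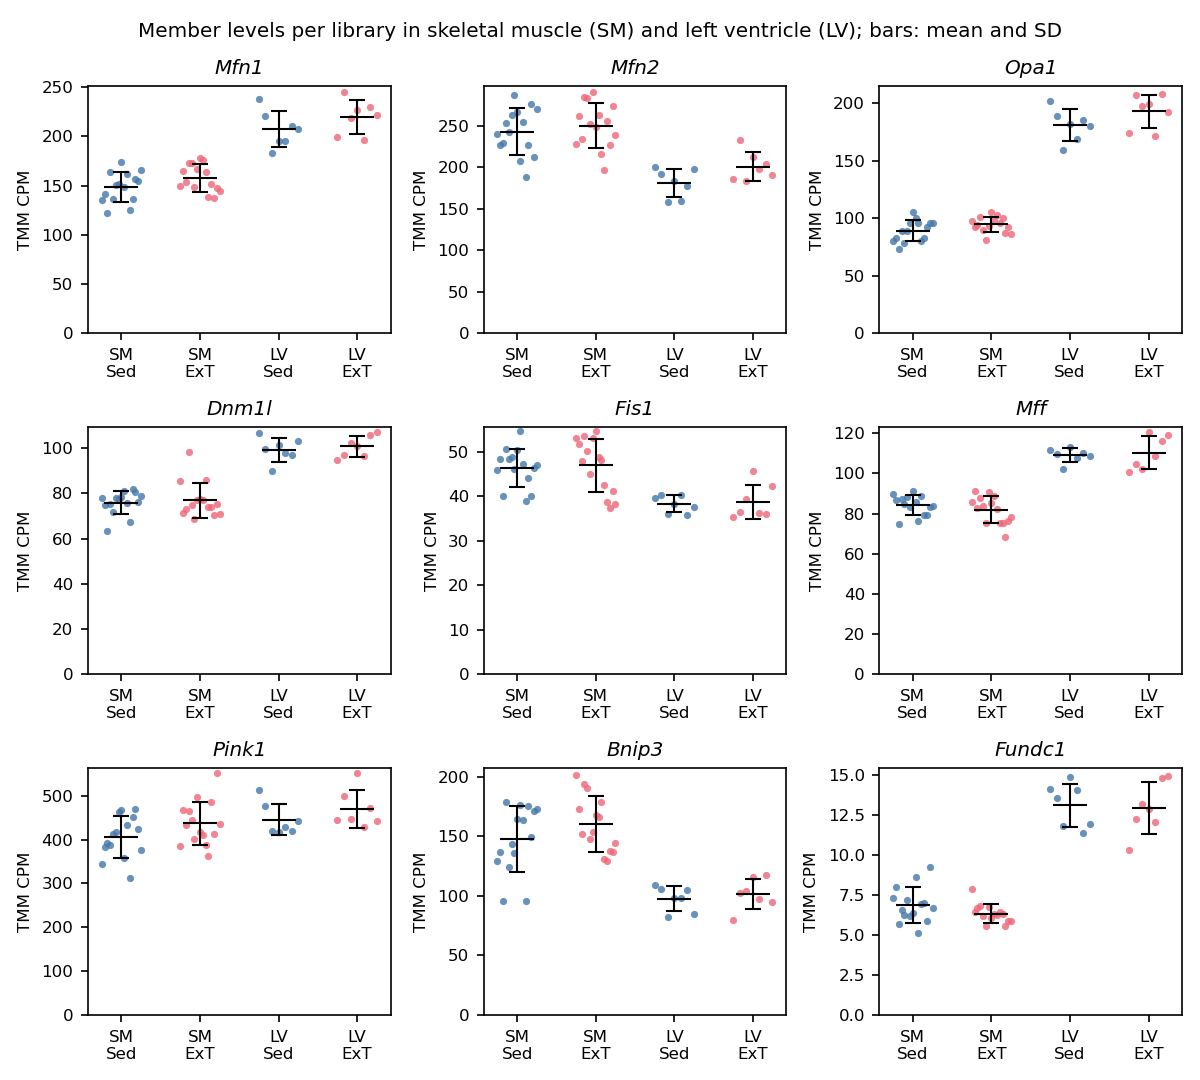
Each panel plots 1 gene, with the level in TMM CPM on a linear y axis from 0 and the groups SM_Sed, SM_ExT (15 libraries each), LV_Sed and LV_ExT (7 each) on the x axis; points are libraries in order of rat number, and black bars give the mean and SD. Opa1 and Fundc1 in LV lie above every SM library, Bnip3 and Mfn2 lie lower in LV than in SM with some overlap when all 15 SM libraries of an arm are shown (Mfn2 was not lower with nuclear totals), and Sed and ExT overlap in each tissue.

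Among the fusion genes, Opa1 had the largest difference. Its lowest, median and highest levels in LV_Sed were 159, 181 and 202 TMM CPM, against 82.7, 95.6 and 105 in the SM libraries of the same 7 rats. In ExT rats they were 172, 197 and 208 in LV and 86.4, 92.9 and 106 in SM. Every heart library was above every muscle library in both arms. The log2 fold change of LV over SM was 0.92 (SE 0.064, adjusted p = 9.2e-11) in Sed and 1.00 (SE 0.065, adjusted p = 2.8e-11) in ExT.

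The mitofusins went opposite ways with TMM scaling, although not with nuclear totals, under which the estimate for Mfn2 was above 0. Mfn1 ran at 183, 208 and 238 TMM CPM (lowest, median, highest) in LV_Sed and 137, 155 and 174 in the matching SM libraries, a log2 change of 0.41 (SE 0.069, adjusted p = 1.93e-05). Mfn2 ran at 159, 183 and 201 in LV_Sed and 207, 267 and 287 in SM, a log2 change of -0.46 (SE 0.086, adjusted p = 6.08e-05). Mfn1 was higher in LV in 7 of 7 Sed rats and Mfn2 in 0 of 7, and neither range overlapped. In ExT rats Mfn1 gave 0.46 (SE 0.073, adjusted p = 1.06e-05) and Mfn2 -0.38 (SE 0.070, adjusted p = 6.14e-05), with Mfn2 again lower in the heart of every rat although the group ranges overlapped. With nuclear totals, a scaling that moved the median of all genes to 0.60 in Sed and 0.50 in ExT, the log2 fold change of Mfn2 was 0.097 (adjusted p = 0.216) and 0.10 (adjusted p = 0.184).

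A ratio of 2 genes within a library does not depend on the scaling of that library. The ratio of Mfn1 to Mfn2 counts was 1.05 to 1.22 (median 1.15) in LV_Sed and 0.526 to 0.728 (median 0.614) in SM_Sed. In ExT it was 0.995 to 1.19 (median 1.07) in LV and 0.537 to 0.756 (median 0.609) in SM. All 14 heart libraries therefore had a higher share of Mfn1 than any of the 30 muscle libraries. Counts of a gene grow with its length, so a ratio of 1 does not mean equal numbers of molecules.

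Of the division genes, Dnm1l, which encodes the GTPase itself, and Mff, its main adaptor, were both higher in the heart. Dnm1l measured 99.4 ± 5.31 (SD, n = 7) TMM CPM in LV_Sed and 79.3 ± 1.98 in the matching 7 SM libraries, and log2 changes of 0.32 (SE 0.050, adjusted p = 7.16e-06) in Sed and 0.41 (SE 0.051, adjusted p = 3.87e-07) in ExT. Mff measured 109 ± 3.49 (SD, n = 7) and 83.7 ± 4.13, with 0.38 (SE 0.050, adjusted p = 1.01e-06) and 0.43 (SE 0.070, adjusted p = 1.34e-05). For both genes the heart and muscle ranges of matching rats did not overlap in either arm. Fis1, the other adaptor, was lower with TMM though not with the other scalings named below: 38.3 ± 1.90 (SD, n = 7) TMM CPM in LV_Sed against 47.0 ± 4.62 in SM, a log2 change of -0.30 (SE 0.063, adjusted p = 0.000269) in Sed and -0.23 (SE 0.093, adjusted p = 0.0320) in ExT, with overlapping ranges. The call on Fis1 in ExT was lost with the rat as a block (log2 fold change -0.22, adjusted p = 0.0616), it was lost in both arms with library totals (-0.057 and -0.024, adjusted p = 0.438 and 0.794), and with nuclear totals Fis1 was higher in LV, at 0.26 (adjusted p = 0.00221) in Sed and 0.26 (adjusted p = 0.0148) in ExT. Within libraries, the ratio of Mff to Fis1 counts was 2.67 to 3.09 (median 2.83) in LV_Sed and 1.57 to 2.28 (median 1.80) in SM_Sed, and 2.60 to 3.24 (median 2.85) in LV_ExT and 1.56 to 2.05 (median 1.73) in SM_ExT. The adaptor ratio did not overlap between the tissues.

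The mitophagy receptors also parted. Fundc1 ran at 5.14, 6.72 and 9.23 TMM CPM (lowest, median, highest) in SM_Sed and at 11.4, 13.6 and 14.9 in LV_Sed. In ExT the values were 5.54, 6.29 and 7.90 in SM and 10.3, 12.9 and 15.0 in LV. All 14 heart libraries exceeded all 30 muscle libraries. The log2 fold change over the matching SM libraries was 0.87 (SE 0.10, adjusted p = 2.12e-07) in Sed and 1.06 (SE 0.083, adjusted p = 5.66e-10) in ExT. Bnip3 showed the reverse, with 82.1, 98.1 and 109 TMM CPM in LV_Sed and 136, 171 and 176 in the SM libraries of the same rats, and 79.8, 103 and 117 and 129.6, 144 and 168 in ExT. The matching groups did not overlap. Its log2 fold change was -0.75 (SE 0.078, adjusted p = 3.62e-08) in Sed and -0.57 (SE 0.084, adjusted p = 4.22e-06) in ExT. With nuclear totals these shrank to -0.20 (adjusted p = 0.0332) and -0.084 (adjusted p = 0.335). The ratio of Fundc1 to Bnip3 counts was 0.108 to 0.151 (median 0.140) in LV_Sed, 0.0314 to 0.0731 (median 0.0490) in SM_Sed, 0.111 to 0.158 (median 0.126) in LV_ExT and 0.0324 to 0.0492 (median 0.0392) in SM_ExT. On this scale-free measure, too, every heart library lay above every muscle library.

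Pink1, the kinase that builds up on depolarised mitochondria, measured 446 ± 36.1 (SD, n = 7) TMM CPM in LV_Sed and 430.1 ± 45.9 in the matching SM libraries, and its ranges overlapped. Its log2 fold change was 0.050 (SE 0.080, adjusted p = 0.575) in Sed and 0.0099 (SE 0.083, adjusted p = 0.918) in ExT, with 95% intervals of -0.12 to 0.22 and -0.16 to 0.18. Scaling by totals called it higher in LV, at 0.60 in Sed and 0.49 in ExT with nuclear totals (adjusted p = 5.6e-07 and 3.23e-05) and 0.29 and 0.20 with library totals (adjusted p = 0.00344 and 0.0417), whereas RLE size factors and DESeq2 did not call it. Across the 9 genes, Opa1, Fundc1, Mfn1, Mff and Dnm1l kept both direction and call under all 8 alternatives run in each arm. In levels, the heart and muscle libraries did not overlap for 7 of 9 members in Sed and 6 of 9 in ExT. Over all genes the shares were 56.0% in Sed and 57.1% in ExT.

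**Figure D2:**
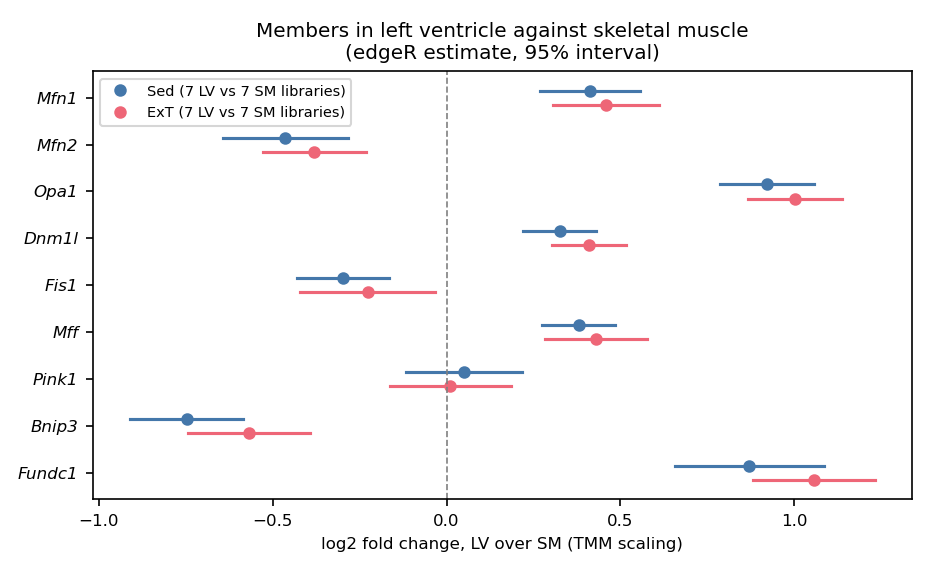
The x axis is the log2 fold change of LV over SM with TMM scaling, and each row is 1 gene; dots are edgeR estimates and lines 95% intervals, blue for 7 Sed and red for 7 ExT rats with both tissues. Opa1 and Fundc1 lie farthest to the right, Bnip3 farthest to the left and Pink1 at 0; the intervals of the arms overlap for every gene, and with nuclear totals Mfn2 and Fis1 would lie right of 0.

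The promoters of 3 members are shown, chosen after their values were seen: Opa1 had the highest and Bnip3 the lowest log2 fold change in LV over SM in Sed, and Pink1 was not called. Each sequence is the 250 bases before the annotated start of the gene, 5′ to 3′ on the strand of the gene, from RefSeq on build GRCr8, which is not the build of the counts. Of the 9 members, 7 were in the table used, with 8 windows. Capitals mark matches on either strand to CACGTG (an E-box), GGGCGG (a GC box, so CCGCCC is its other strand) and TGCGCA (the core of the NRF1 site).
Opa1, chr11:84689901-84690150, minus strand: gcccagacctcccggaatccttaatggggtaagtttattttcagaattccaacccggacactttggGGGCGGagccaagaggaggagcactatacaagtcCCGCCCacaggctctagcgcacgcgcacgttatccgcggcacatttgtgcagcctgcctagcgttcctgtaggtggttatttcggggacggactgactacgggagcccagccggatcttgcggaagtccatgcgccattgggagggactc
Bnip3, chr1:203154963-203155212, minus strand: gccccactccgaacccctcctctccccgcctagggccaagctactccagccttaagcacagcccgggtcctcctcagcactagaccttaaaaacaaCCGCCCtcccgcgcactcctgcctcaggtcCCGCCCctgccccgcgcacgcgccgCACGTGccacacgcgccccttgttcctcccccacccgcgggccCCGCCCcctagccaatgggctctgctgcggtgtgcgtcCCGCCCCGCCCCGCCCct
Pink1, chr5:155825951-155826200, minus strand: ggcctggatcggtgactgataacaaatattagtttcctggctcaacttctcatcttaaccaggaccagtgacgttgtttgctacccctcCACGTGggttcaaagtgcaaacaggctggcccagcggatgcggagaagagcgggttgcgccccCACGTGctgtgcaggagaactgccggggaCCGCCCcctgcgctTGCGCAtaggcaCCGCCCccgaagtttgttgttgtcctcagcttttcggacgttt
The Pink1 window held 2 E-boxes, 2 GC boxes and 1 TGCGCA. The Bnip3 window held 1 E-box and 6 GC boxes, of which the last 3 overlap one another. Of the 3 marked motifs, the Opa1 window held only the GC box, with 2 matches. An E-box occurs in 5.59%, a GC box in 30.5% and TGCGCA in 6.14% of 33469 rat promoter windows of this length. The ERR element TCAAGGTCA (0.388% of windows) had no match in the windows of these 3 genes, and CCAAT (34.0%) matched once in Opa1 and once in Bnip3. These matches are letters in a window and not sites of binding.

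Other genes of the same processes were read from a list of 65, of which 61 were in the tables. With TMM scaling, 23 were higher and 28 lower in LV than in SM in Sed, and 24 and 25 in ExT. Their median log2 fold change was -0.088 in Sed and 0.0045 in ExT, against 0.035 and 0.012 over all genes. With nuclear totals the split was 42 higher and 11 lower in Sed and 40 and 11 in ExT, so the balance of directions depended on the scaling. The genes named next kept direction and call under every scaling tried.

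In the inner membrane group, 7 of 14 tested were higher and 5 lower in Sed. Its subunits of the MICOS complex, which holds the cristae junctions, split: Apool was higher, at 1.26 (SE 0.077, adjusted p = 1.25e-11), whereas Micos10 was lower, at -1.98 (SE 0.064, adjusted p = 5.89e-16), and so was Chchd3, at -0.98 (SE 0.062, adjusted p = 2.06e-11). Chchd6, another MICOS subunit, averaged 0.587 TMM CPM in LV_Sed and 0.0166 in SM_Sed, too little for a fold change in muscle. Of the division group, 5 of 13 were higher and 7 lower, with Gdap1, an outer membrane protein, at -2.70 (SE 0.22, adjusted p = 9.52e-10) and Inf2, an actin-building formin, at -1.06 (SE 0.092, adjusted p = 2.63e-09). Among 16 mitophagy genes 6 were higher and 8 lower. The autophagy receptor Tax1bp1 gave 1.09 (SE 0.070, adjusted p = 2.54e-11) and Tbk1, a kinase that acts on such receptors, 0.99 (SE 0.078, adjusted p = 5.6e-10), and the deubiquitinase Usp15, which counters parkin, gave -1.30 (SE 0.070, adjusted p = 1.67e-12). Of 15 general autophagy genes 3 were higher, led by Atg12 at 1.83 (SE 0.071, adjusted p = 9.29e-15) and the LC3 gene Map1lc3a at 1.23 (SE 0.067, adjusted p = 1.96e-12), and 7 were lower, led by Tfeb, a regulator of lysosomal genes, at -1.90 (SE 0.10, adjusted p = 2.13e-12). In ExT rats Apool, Atg12, Map1lc3a, Tax1bp1 and Tbk1 were again higher and Gdap1, Micos10, Tfeb, Usp15 and Chchd3 again lower. Of the 3 transport genes tested, 2 were higher and 1 lower in both arms.

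In the mitochondrial fraction, all 9 members were lower than in whole muscle of the same rats with TMM scaling, in both arms, and all but Fundc1 were lower with nuclear totals as well. Pink1 lay farthest below and Fundc1 least. The count was 9 of 9 in Sed and in ExT, where 33.1% and 35.0% of all genes tested were called lower, and 94.8% and 94.3% were called in either direction. The tests took in 22842 genes in Sed and 21312 in ExT, against 13570 for training in SM alone. These shares thus include genes with too few counts to be tested in SM alone, and so does the median given next. The median gene of all tested lay at 1.81 in Sed and 1.31 in ExT on the log2 scale, and the median of the members at -3.71 and -3.79. With nuclear totals the split over all genes was 20974 higher and 2296 lower in Sed, against 14086 and 7562 with TMM. These comparisons use SM libraries that also served the comparison with LV. The amount of RNA put into a library also differed between MT and SM and cannot be told apart from the fraction.

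Pink1 ran at 37.9, 55.4 and 70.5 nuclear CPM (lowest, median, highest) in MT_Sed and 416, 568 and 656 in SM_Sed, and at 31.3, 56.3 and 89.2 and 522, 602 and 859 in ExT. Every MT library lay below every SM library. With TMM its log2 fold change of MT over SM was -5.50 (SE 0.094, adjusted p = 3.58e-42) in Sed and -5.52 (SE 0.12, adjusted p = 2.2e-39) in ExT. Bnip3 had 22.8, 38.2 and 51.7 nuclear CPM in MT_Sed against 118, 189.8 and 265 in SM_Sed, with -4.57 (SE 0.11, adjusted p = 9.73e-37) in Sed and -4.50 (SE 0.096, adjusted p = 3.91e-39) in ExT. In all, 0.832% of genes tested in Sed had a lower estimate than Pink1, and 1.79% a lower one than Bnip3.

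Fundc1 differed from the others on the nuclear scale. Its counts per MT library were few, with a median of 7 and a range of 2 to 17, where a floor of 3 counts is worth 2.84 to 6.97 nuclear CPM. They were too few for Fundc1 to be tested within MT alone. Levels were 4.63, 9.10 and 21.1 nuclear CPM in MT_Sed and 6.94, 8.99 and 13.9 in SM_Sed, and 4.23, 10.9 and 20.0 and 7.71, 8.96 and 10.7 in ExT. The groups overlapped, and Fundc1 was higher in MT in 8 of 15 Sed and 9 of 15 ExT rats. The TMM fit nonetheless placed it lower, at -2.08 (SE 0.14, adjusted p = 4.49e-19) in Sed and -1.79 (SE 0.13, adjusted p = 2.83e-17) in ExT. With nuclear totals, which put the median of all genes at 4.45 and 4.28, it stood at 0.055 (adjusted p = 0.739) and 0.27 (adjusted p = 0.0846). The other 8 members remained lower and called with nuclear totals, from -3.35 for Pink1 to -0.84 for Opa1 in Sed.

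The fusion genes were spread between these ends. Mfn2 fell from 332 ± 37.3 nuclear CPM in SM_Sed to 83.8 ± 17.7 (SD, n = 15) in MT_Sed, a log2 change of -4.12 (SE 0.095, adjusted p = 2.82e-37) with TMM. Mfn1 had -3.71 (SE 0.078, adjusted p = 5.66e-39), from 203 ± 27.3 to 67.1 ± 9.43 (SD, n = 15) nuclear CPM, and Opa1 -2.98 (SE 0.076, adjusted p = 1.7e-35), from 122 ± 16 to 67.2 ± 11.3 (SD, n = 15). All 3 were lower in MT in every rat of both arms, with no overlap between the groups. The ratio of Mfn1 to Mfn2 counts was 0.568 to 1.39 (median 0.769) in MT_Sed, which overlapped the 0.526 to 0.728 (median 0.614) of SM_Sed.

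Division genes fell by like amounts. The log2 fold change in Sed was -3.84 (SE 0.090, adjusted p = 6.29e-37) for Mff, -3.55 (SE 0.085, adjusted p = 1.18e-36) for Dnm1l and -3.09 (SE 0.10, adjusted p = 1.37e-30) for Fis1. Mff and Dnm1l were lower in MT in 15 of 15 Sed rats, and Fis1 in 14 of 15. In ExT the 3 estimates were -3.79, -3.38 and -3.07. Counting MT against SM libraries that did not overlap in nuclear CPM, 7 of 9 members were lower in each arm. Fis1 and Fundc1 were the 2 that overlapped. The share over all genes tested was 5.78% in Sed and 6.55% in ExT. It includes genes with too few counts to be tested in SM alone.

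**Figure D3:**
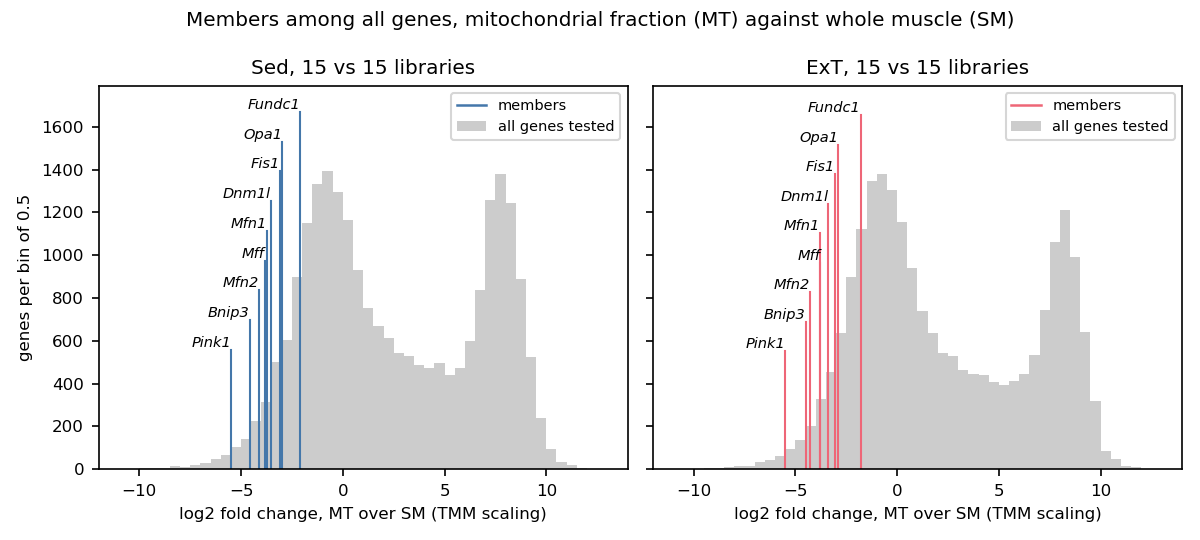
Grey bars count all genes tested (y axis, genes per bin of 0.5) by log2 fold change of MT over SM with TMM scaling (x axis), for 15 Sed rats on the left and 15 ExT rats on the right; coloured lines mark the 9 members, and the height of a line carries no value. All members lie left of 0 (Fundc1 did not with nuclear totals), from Pink1 at -5.50 to Fundc1 at -2.08 in Sed. The median of all genes tested in Sed, among them genes with too few counts to be tested in SM alone, lies at 1.81.

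Most other genes of the list moved the same way with TMM: 55 of 60 tested were lower in MT and 4 higher in Sed, and 55 and 5 in ExT. With nuclear totals 31 were lower and 26 higher in Sed. The genes farthest down, all of them also lower with nuclear totals, were Nipsnap2, a mitochondrial signal for mitophagy, at -5.94 (SE 0.10, adjusted p = 1.45e-42), the MICOS genes Chchd3 at -5.63 (SE 0.098, adjusted p = 5.69e-42) and Immt at -4.66 (SE 0.097, adjusted p = 3.79e-39), and the autophagy receptor Sqstm1 at -4.89 (SE 0.087, adjusted p = 1.5e-41). The 4 that were higher in Sed were Nipsnap1, the paralog of Nipsnap2, at 2.74 (SE 0.13, adjusted p = 2.29e-24), Atg7, an enzyme of LC3 conjugation, at 0.77 (SE 0.089, adjusted p = 4.41e-11), the mitochondrial deubiquitinase Usp30 at 0.74 (SE 0.085, adjusted p = 3.38e-11) and Gdap1 at 0.72 (SE 0.11, adjusted p = 8e-08). The same 4 were higher in ExT, joined by Spire1, an actin nucleator, at 0.32 (SE 0.069, adjusted p = 3.45e-05). Nipsnap1 averaged 2.00 nuclear CPM in SM_Sed and 58.5 in MT_Sed. Marker lists of other cells went both ways. The summed level in nuclear CPM of the 5 adipocyte genes was 2.99 to 55.1 in SM_Sed and 119 to 221 in MT_Sed, and that of the 3 satellite cell genes 22.7 to 34.5 and 98.7 to 179. The 6 immune genes summed to 27.6 to 84.3 and 329 to 468, and the 4 nerve genes to 8.13 to 148 and 112 to 182. The summed level of the 6 fibroblast genes was lower in the median, at 4955 in SM_Sed and 729 in MT_Sed. So were the sums of the 5 endothelial genes, at 495 and 356, and the 2 blood genes, at 78.2 and 61.1. Single genes of these lists differed. Of the endothelial genes, Pecam1 and Cdh5 had lower means in MT_Sed. Tek (56.5 in SM_Sed and 75.7 in MT_Sed), Kdr (117 and 122) and Emcn (24.5 and 25.7) had higher ones. Of the fibroblast genes, Pdgfra had a higher mean (40.0 and 95.4) and the rest lower ones. Of 5797 nuclear genes that no SM or LV library counted, 5331 were counted in MT. The part of this signal in the members' MT levels was not tested.

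Training did not move any member past the threshold in any of the 3 kinds of library. In whole muscle the edgeR test called 0 of 9 members, where 0.206% of 13570 genes were called, and 0 of 9 had an unadjusted p under 0.05. In the mitochondrial fraction it called 0 of 8 tested, with 0.0% of 19281 genes called and 0 members at an unadjusted p under 0.05; Fundc1 had too few counts to be tested there. In the heart it called 0 of 9, with 0.0% of 14488 genes called, and 1 member, Mfn2, had an unadjusted p under 0.05. DESeq2 called 0 members in each. Sed and ExT ranges overlapped for all 9 genes in all 3 kinds of library, where 0.0%, 0.0% and 0.0621% of genes did not overlap in SM, MT and LV.

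The muscle estimates were small and their intervals bound them. Bnip3 had the highest, with levels of 95.3, 149 and 179 TMM CPM (lowest, median, highest) in SM_Sed and 129.6, 154 and 201 in SM_ExT and a log2 fold change of ExT over Sed of 0.12 (SE 0.086, adjusted p = 0.551), 95% interval -0.054 to 0.30. Fundc1 had the lowest, -0.12 (SE 0.070, adjusted p = 0.456), interval -0.26 to 0.022. In both genes the arms overlapped widely. Pink1 stood at 313, 413 and 470.3 TMM CPM in SM_Sed and 362, 434 and 551 in SM_ExT, with 0.11 (SE 0.062, adjusted p = 0.451). The fusion genes gave 0.091 (SE 0.053, adjusted p = 0.450) for Mfn1, 0.089 (SE 0.049, adjusted p = 0.428) for Opa1 and 0.046 (SE 0.060, adjusted p = 0.778) for Mfn2. The division genes were closest to 0, at 0.021 for Dnm1l, 0.017 for Fis1 and -0.037 for Mff. Taking all 9 intervals, changes below -0.26 or above 0.30 on the log2 scale lie outside them.

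The rats were numbered in 2 ranges, 2 to 16 (14 rats) and 17 to 32 (16 rats). SM libraries of the later range differed from the earlier in 1762 of 13570 genes, though in 0 of 9 members (edgeR). An unadjusted p under 0.05 was found for 2 members and for 3770 of the 13570 genes. DESeq2 was not run on this difference. Of the 14 rats with LV libraries, 2 were in the earlier range, so the LV training results rest mainly on the later range. Over all genes in SM, edgeR called 396 for training in rats 2 to 16 and 1 in rats 17 to 32. Bnip3 pointed different ways in the ranges. Among rats 2 to 16 it ran at 96.0, 136 and 179 TMM CPM in 7 SM_Sed and 148, 173 and 201 in 7 SM_ExT libraries, and among rats 17 to 32 at 95.3, 168 and 176 in 8 SM_Sed and 129.6, 141 and 179 in 8 SM_ExT libraries. The trained rats lay mostly above the sedentary ones in the earlier range and mostly below in the later, with overlap in both. The log2 fold change was 0.36 (SE 0.11, adjusted p = 0.0685) in the earlier range and -0.085 (SE 0.10, adjusted p = 0.938) in the later. The difference of the training effects, tested as an interaction after the data were seen, was -0.44 (SE 0.16, adjusted p = 0.250) and did not pass. Its 95% interval was -0.77 to -0.12 and its unadjusted p by edgeR 0.00863. Over all genes, 1807 of 13570 had an unadjusted p under 0.05 for this interaction. The other 8 members also had a lower training estimate in the later range than in the earlier. Their interaction estimates ran from -0.18 for Fis1 to -0.060 for Mfn2, and 0 of 9 passed. Slow-fibre genes moved in the same direction: the median interaction over the 8 listed was -1.002, and 0 of 8 passed, with 1 at an unadjusted p under 0.05. The part of fibre makeup in the difference of the Bnip3 training estimates between the ranges was not tested.

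**Figure D4:**
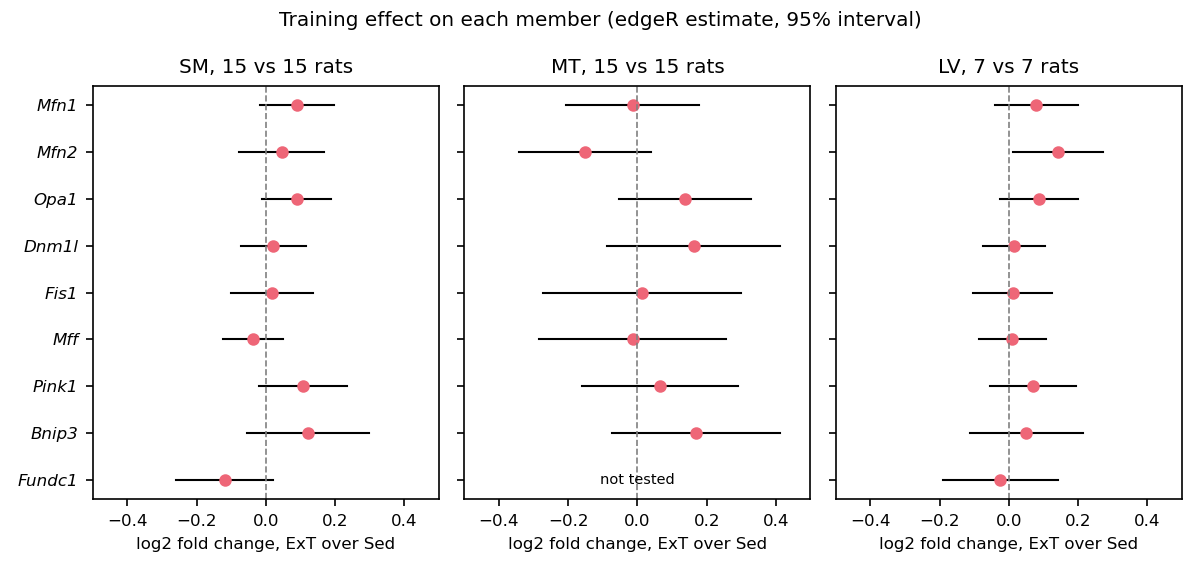
Each panel is 1 kind of library (SM and MT with 15 ExT and 15 Sed rats, LV with 7 and 7); the x axis is the log2 fold change of ExT over Sed, dots are edgeR estimates and lines 95% intervals. All intervals cross 0 except that of Mfn2 in LV, and Fundc1 was not tested in MT.

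In the heart, Mfn2 ran at 159, 183 and 201 TMM CPM in LV_Sed and 184, 198 and 233 in LV_ExT, a log2 change of 0.14 (SE 0.062, adjusted p = 0.804) with a 95% interval of 0.013 to 0.27. The trained hearts were higher on average and overlapped the sedentary ones. Opa1 and Mfn1 gave 0.087 (SE 0.054, adjusted p = 0.825) and 0.079 (SE 0.057, adjusted p = 0.845), Pink1 0.069 (SE 0.059, adjusted p = 0.875) and Bnip3 0.051 (SE 0.078, adjusted p = 0.941). Dnm1l, Fis1, Mff and Fundc1 lay between -0.025 and 0.014. In the mitochondrial fraction the estimates ran from -0.15 for Mfn2 to 0.17 for Bnip3, and the intervals were wider, from -0.34 at the lowest to 0.41 at the highest. The 8 members tested there had medians of 21 to 57.5 counts per MT library. The training effect did not differ past the threshold between MT and SM in 9 members (edgeR and DESeq2 each called 0, with 0 at an unadjusted p under 0.05 and 0.0181% of genes called) or between LV and SM (0 by both, 0 at an unadjusted p under 0.05, 0.0% of genes). For Mfn2, the estimate of LV minus SM was 0.10, 95% interval -0.12 to 0.33.

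With TMM scaling, edgeR called none of the other listed genes for training: 0 of 60 in SM, 0 of 59 in MT and 0 of 61 in LV, with 9, 5 and 4 at an unadjusted p under 0.05. Over all genes, 1860 of 13570 in SM, 912 of 19281 in MT and 855 of 14488 in LV had such a p. Nearest to a call among the listed genes in SM was Spg7, a subunit of the inner membrane protease that works beside Opa1. Its log2 estimate was 0.18 (SE 0.041, adjusted p = 0.0545). With edgeR it was called with nuclear totals, at 0.24 (adjusted p = 0.0288), and with library totals, at 0.19 (adjusted p = 0.0481). DESeq2 called it and no other listed gene in SM, with an adjusted p of 0.00821, and called none in MT or LV. Fibre markers moved beside these results without passing: the summed level of the 8 slow-fibre genes had a median of 19204 nuclear CPM in SM_Sed and 27246 in SM_ExT, over ranges of 6436 to 40432 and 7524 to 43798. Of the 8, 0 were called by edgeR, by DESeq2 or at an unadjusted p under 0.05. Of the 7 fast-fibre genes, 0 were called by edgeR and 6 had an unadjusted p under 0.05, with log2 fold changes from -0.45 to 0.50 around a median of -0.27, and DESeq2 called 0. Their estimates went both ways, as Myh2, the myosin of type 2A fibres, averaged 12657 nuclear CPM in SM_Sed and 18412 in SM_ExT, and Myh4, the myosin of type 2B fibres, 63212 and 51145. The part of fibre makeup in the members' training estimates in SM was not tested. Correlations of the members with a ratio of fibre markers are given below.

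With nuclear CPM, most pairs of members rose and fell together across rats in whole muscle. Over the 30 SM libraries, log2 nuclear CPM (with 0.5 added) was correlated for each of 36 pairs after subtracting the mean of each arm, with two-sided permutation tests of 100000 resamples. A positive Pearson correlation had an adjusted p under 0.05 in 25 of 36 pairs, and a Spearman correlation in 22. The median r was 0.54, against 0.17 over all pairs of 9475 genes, of which 19.5% reached the lowest r called here. All pairs share the same libraries and their scaling. With TMM CPM, 16 of 36 pairs passed, the median r was 0.37, and 8.26% of all pairs reached the lowest r called.

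With nuclear CPM the strongest pair was Mfn1 and Opa1, the outer and inner membrane fusion genes (r = 0.83, rho = 0.73, adjusted permutation p = 4.5e-05 and 6e-05). Without the 2 libraries farthest from the median of Mfn1, r was 0.72, and it was 0.85 among rats 2 to 16 and 0.83 among rats 17 to 32. Dnm1l and Bnip3 followed (r = 0.81, rho = 0.78, adjusted permutation p = 4.5e-05 and 6e-05). Without the 2 farthest libraries r was 0.76, and 0.82 and 0.73 within the ranges. The adaptors Fis1 and Mff were tied (r = 0.80, rho = 0.72, adjusted permutation p = 4.5e-05 and 0.00016), with 0.70 without the 2 farthest and 0.94 and 0.68 within the ranges. With TMM CPM these 3 pairs had r of 0.737, 0.716 and 0.730, and the highest was Mfn1 with Bnip3, at 0.744 (0.80 with nuclear CPM). For Mfn2 the closest partner was Pink1 (r = 0.76, rho = 0.74, adjusted permutation p = 4.5e-05 and 6e-05), at 0.74 without the 2 farthest and 0.85 and 0.76 within the ranges, while its r with Opa1, Dnm1l, Fis1 and Mff lay between 0.32 and 0.36 and passed in none. With the means of both arm and rat-number range subtracted, Mfn2 with Opa1 did pass (r = 0.45, rho = 0.45, adjusted permutation p = 0.0195 and 0.0216). Fundc1 had r of -0.18 with Mfn2 and 0.025 with Pink1, the lowest of the 36.

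**Figure D5:**
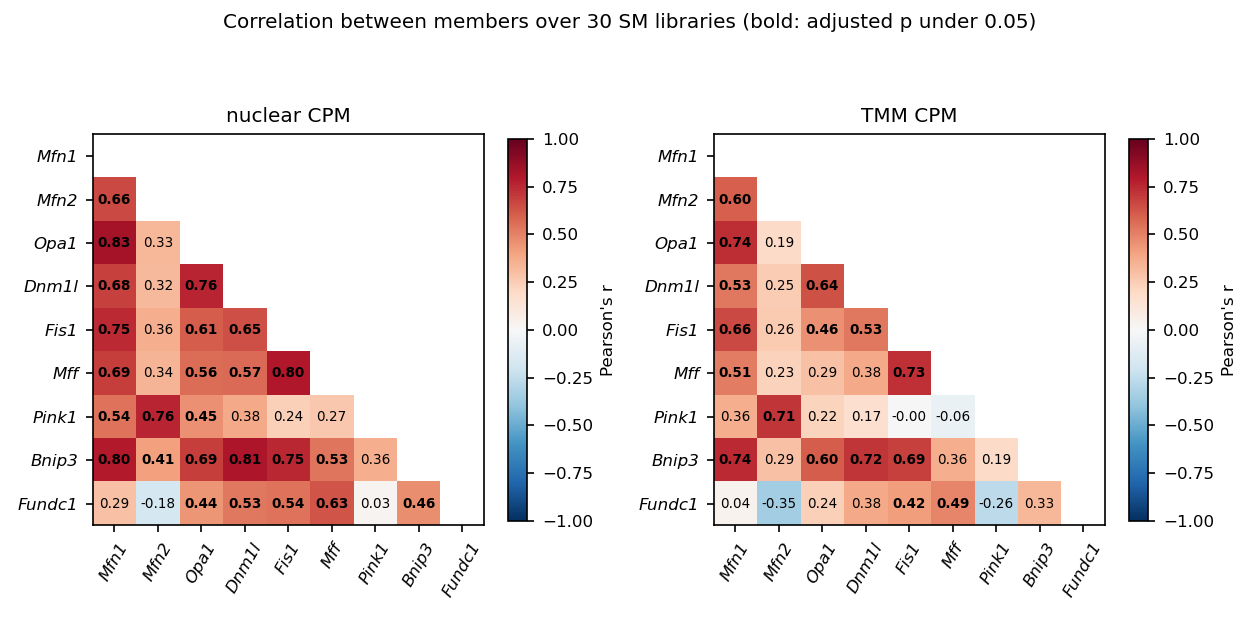
Each cell gives Pearson's r between 2 members over 30 SM libraries after subtracting arm means, coloured from -1 (blue) to 1 (red), with nuclear CPM on the left and TMM CPM on the right; bold marks an adjusted permutation p under 0.05. 25 of 36 cells are bold on the left and 16 on the right, and in both panels Mfn2 pairs most closely with Pink1.

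The red gastrocnemius holds slow and fast fibres, and the summed levels of their marker genes differed between rats. Fibres themselves were not counted. The log2 ratio of slow-fibre to fast-fibre marker sums was set against each member, a comparison added after the data were seen. Mfn1 (r = 0.78, rho = 0.79, adjusted permutation p = 3e-05 and 4.5e-05) and Mfn2 (r = 0.78, rho = 0.76, adjusted permutation p = 3e-05 and 4.5e-05) followed it most closely with nuclear CPM. Bnip3 came next at r = 0.74 and Pink1 at r = 0.67. Without the 2 farthest libraries these 4 values were 0.75, 0.72, 0.69 and 0.63. Opa1, Dnm1l, Fis1 and Mff had r of 0.59, 0.55, 0.54 and 0.40, and Fundc1 of 0.069. Thus 8 of 9 passed, where 27.2% of 9475 genes reached the lowest r called. With TMM CPM, r was 0.72 for Mfn1 and 0.58 for Mfn2, with Bnip3 between them at 0.68, and Dnm1l (0.35) and Mff (0.19) no longer passed. For Mff with nuclear CPM, r was 0.27 without the 2 farthest libraries. It was 0.64 among rats 2 to 16 and 0.075 among rats 17 to 32. With the means of arm and range subtracted, r for Mff was 0.33 (adjusted permutation p = 0.0854), and 0.40 without the 2 farthest.

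The genes whose levels ran most like each member over the 30 SM libraries were found by Spearman's rho among 9475 genes in nuclear CPM, as a description without a test. Opa1 was closest to Fam210a (rho = 0.943) and Clasp2 (0.913), and Mfn1 to Acadl (0.917), a fatty acid oxidation enzyme, and Pdhb (0.916), a subunit of pyruvate dehydrogenase. Mfn2 was closest to Ndrg2 (0.890) and Extl1 (0.864). Pink1 ran with Crat (0.921), carnitine acetyltransferase, and Pnpla2 (0.892), the main lipase of stored fat. Bnip3 and Dnm1l shared Fkbp3 (rho = 0.935 and 0.876), with Atp5pb (0.896), an ATP synthase subunit, second for Bnip3 and Emc2 (0.868) second for Dnm1l. Fis1 lay closest to Nme2 (0.916) and Bag1 (0.900), and Mff to Mmut (0.816), a mitochondrial mutase, and Snx5 (0.806). Fundc1 had the loosest partners, Vamp3 (0.763) and Msl3 (0.750). No member was among the 2 closest genes of another.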

How the data were processed

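RNA of 74 libraries in 6 groups was sequenced, and the authors deposited 3 tables of whole-number counts per gene. Per the submitters' processing notes, the tools were FastQC 0.74, cutadapt 4.6, STAR 2.7.11a and HTSeq, with build mRatBN7.2; the strand setting of the counting is not given in the sources used here, so reads of overlapping or antisense genes cannot be told apart from those of a member. No column belonged to another sample (0 such columns). Counts were tested in R 4.3.3 with edgeR 4.0.16 (TMM scaling, filterByExpr on low counts, robust quasi-likelihood F test), with Benjamini-Hochberg adjustment over all genes tested and calls at an adjusted p under 0.05, after a check on simulated data. Correlations and levels used Python 3.11.15 (scipy 1.17.1, pandas 2.3.3 and numpy 2.4.6), and figures matplotlib 3.10.9. SM libraries held 19477976 to 39401323 counts, and 3 counts, taken as the smallest amount told from 0, correspond to 0.115 to 0.226 nuclear CPM in SM, 2.84 to 6.97 in MT and 0.0713 to 0.101 in LV.

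Training was tested within each kind of library, and MT and LV against the SM libraries of the same rats. MT, LV and SM of 1 number come from 1 rat, by the rat numbers in the titles and the design text. Deviations from group means correlated at a median of 0.00998 over 30 same-rat MT and SM pairs (0.000885 between different rats) and 0.0329 over 14 LV and SM pairs (-0.00698). Alternatives were DESeq2 1.42.0, other scalings, no filter, thinned counts, 1 rat-number range alone or as a term, the rat as a block and leaving out single libraries. Scaling by nuclear totals, TMM CPM in the correlations, the fibre ratio and the differences between ranges were chosen after seeing the data. Named were all members, the listed pathway genes called with the largest log2 fold changes (up to 6 in each direction, of which a part is described), and the 2 genes of highest rho with each member at a mean of at least 5 CPM; Chchd6, Spg7 and the promoters shown were added after their values were seen. The members and lists were chosen with earlier results of these data known.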

Additional observations from a re-analysis of the deposited data

How the results depend on the processing

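The counts of members called for training (0 in SM, MT and LV) and for the 2 differences of training effects (0) were the same under every alternative run, and each left-out SM or LV library gave 0 to 0. Of 9 members in LV against SM, 8 were called under every alternative in Sed and 7 to 8 in ExT, although not always the same ones, since Pink1 took the place of Mfn2 with nuclear totals and of Fis1 with library totals in Sed. In MT against SM, 8 to 9 were called. The direction of 3 members turned when libraries were scaled by nuclear totals: Fundc1 in MT against SM stood at 0.055 in Sed and 0.27 in ExT on the log2 scale, Mfn2 in LV against SM at 0.097 and 0.10, and Fis1 in LV against SM at 0.26 and 0.26. That scaling moves the zero point of all genes by its construction. With library totals Fundc1 in MT against SM kept its direction and was not called (-0.54 and -0.29, adjusted p = 0.102 and 0.491 by edgeR), and with thinned counts Fundc1 had too few to be tested. Correlated pairs of members numbered 25 with nuclear CPM, 26 with the means of arm and range subtracted and 16 with TMM CPM, for which the cause was not tested. Fis1 in LV against SM in ExT also missed the threshold with no filter (-0.19, adjusted p = 0.0705) and with rats 17 to 32 only (-0.16, adjusted p = 0.136).

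With the rat as a replicate block, 9 of 9 members were called in MT against SM in each arm, 8 of 9 in LV against SM in Sed and 7 of 9 in ExT, where Fis1 missed at -0.22 (adjusted p = 0.0616), and 0 in both differences of training effects. The block changed no other call on a member. Over all genes, the count called for training in SM was 28 with edgeR, 131 with DESeq2, 45 with the range as a term, 48 with nuclear totals, 396 in rats 2 to 16, 1 in rats 17 to 32 and from 12 (without SM_Sed rat 4) to 100 (without SM_Sed rat 23) with 1 library left out, beyond 1.5 times in 15 of 30 such fits. For the training effect in MT minus SM it was 5, with 32 by DESeq2, 20 in rats 2 to 16, 1 in rats 17 to 32, 1 after thinning, 0 with library totals and 3 with the block. For training in LV and its difference from SM it was 0, with 1 by DESeq2 in each, and for training in MT 0, with 1 after thinning. Thinning left 7584 genes to test in MT against SM in Sed, of which 6468 were called, against 21648 of 22842, and 4305 of 5203 in ExT, against 20092 of 21312. Depth limits the MT values most, where a member had a median of 7 to 57.5 counts in a library.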

Other observations

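Between whole muscle of rats numbered 17 to 32 and of rats 2 to 16, 9 of the 60 listed genes of the same processes that were tested differed, and so did 1762 of 13570 genes in all, a share close to that of the list. This difference was examined after the data were seen and fitted with the arm as a term. Rats of the later range had lower Map1lc3b, an LC3 gene, at a log2 difference of -0.37 (SE 0.061, adjusted p = 9.89e-05) by edgeR. The mitophagy receptor Fkbp8 was lower at -0.31 (SE 0.056, adjusted p = 0.000308), and Tomm7, an import receptor subunit that holds Pink1 on the outer membrane, at -0.30 (SE 0.069, adjusted p = 0.00331). Micos13, a subunit of MICOS, was lower at -0.25 (SE 0.060, adjusted p = 0.00521), Atg13 at -0.21 (SE 0.054, adjusted p = 0.00856) and Gabarapl1 at -0.19 (SE 0.061, adjusted p = 0.0288). Pptc7, a mitochondrial phosphatase that restrains Bnip3, was higher at 0.24 (SE 0.061, adjusted p = 0.00745), the kinase Tbk1 at 0.20 (SE 0.059, adjusted p = 0.0176) and the inner membrane protease subunit Afg3l2 at 0.15 (SE 0.044, adjusted p = 0.0198). Fibre and blood markers differed between the ranges as well: of the 7 fast-fibre genes 4 were lower in the later range (list median -0.25, lowest adjusted p = 4.44e-05), as was 1 of 2 blood genes (-0.77, adjusted p = 0.00878). Their part in the genes named here was not tested. The labels do not say what the ranges stand for.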
